A study of Mus musculus with 6 samples.

Results

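The genes that make, shape, break down and sense hyaluronan were followed in cultured mouse dermal fibroblasts with and without stabilized β-catenin. The set holds 10 genes, picked for their place in the hyaluronan pathway and with earlier results of these data known. They are the synthases Has1, Has2 and Has3, the precursor enzyme Ugdh, and the degradation genes Hyal1, Hyal2 and Cemip. The receptor Cd44 and the hyaluronan-binding proteins Vcan and Tnfaip6 complete the set. All 10 were found among the 41126 genes of the deposited all-gene table, and all 10 passed the filter on low counts. In GOF (gain of function) samples Has2, Ugdh, Hyal1 and Cd44 were called higher and Vcan was called lower than in control samples. Has1, Has3, Hyal2, Cemip and Tnfaip6 were not called.

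Hyaluronan is a long, unsulfated sugar chain that is built at the plasma membrane by the HAS enzymes from UDP-glucuronic acid and UDP-N-acetylglucosamine and is extruded directly into the matrix. Hyaluronidases and the CEMIP proteins cut it, CD44 binds it at the cell surface, and versican and TSG-6 bind or cross-link it outside the cell. It is abundant in the dermis, where fibroblasts are its main source and where it holds water and loosens the matrix.

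The study asked which RNAs respond to Wnt/β-catenin signaling in dermal fibroblasts. It sequenced RNA from 3 control and 3 GOF cultures of ventral dermal fibroblasts, taken at postnatal day 4 from mice of mixed CD1 and C57Bl6 background. Control cultures are labelled AdGFP (adenovirus carrying GFP) with genotype +/+, and GOF cultures AdCre (adenovirus carrying Cre recombinase) with genotype Ctnnb1 Δex3/+, in which loss of exon 3 gives a β-catenin that escapes degradation. The paper describes the same Ctnnb1 transgene in both groups, so the labels and the paper differ on the control genotype. The labels' treatment field gives AdCre at 366 to 500 MOI for 6 hours for every culture. Those 6 hours are the time of infection, and in the paper RNA was taken days after it. Because the groups received different viruses, an effect of Cre or of the virus cannot be told apart from one of β-catenin. The samples came from 4 animals, a different one for each culture of a group. Control replicate 0 and GOF replicate 2 shared 1 animal, and Control replicate 2 and GOF replicate 0 shared another. Cultures of 1 animal start with the same inherited Ctnnb1 alleles. Within these pairs the labelled genotypes therefore cannot be an inherited difference. The animal of Control replicate 1 gave no GOF culture, and its inherited genotype was not tested. The cells were grown on plastic after passage, with no tissue around them, and only RNA was measured, not hyaluronan.

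The libraries held 35980831 to 42834467 estimated fragments, so none was much shallower than the others. Axin2, a direct target of β-catenin, averaged 0.152 ± 0.0218 FPKM in control samples (fragments scaled by transcript length and library size, SD, n = 3, from 12 to 25 fragments per library) and 17.5 ± 2.66 FPKM after AdCre (SD, n = 3). Ctnnb1 itself averaged 267 ± 16.3 and 263 ± 28.8 FPKM (SD, n = 3 each); loss of 1 exon need not change the level of the gene. Of 10 dermal fibroblast markers all were expressed, summing to 3120 to 4000 FPKM per control library and 2605 to 3259 per GOF library, and Col1a2 and Dcn were called lower. Summed markers of other cell types were low, with 0.488 to 0.604 FPKM per control library and 2.96 to 6.87 per GOF library for 9 keratinocyte genes (Dsp called higher), and 5.14 to 8.23 and 6.22 to 12.2 FPKM for 8 macrophage genes (Csf1r called higher). They were 8.90 to 10.7 and 10.2 to 11.3 FPKM for 7 endothelial genes (Kdr called higher, Tek lower), 0.322 to 0.382 and 1.04 to 2.14 FPKM for 3 lymphatic genes (Flt4 and Prox1 called higher), and 7.18 to 8.91 and 1.80 to 3.17 FPKM for 4 adipocyte genes (Fabp4 called lower). Higher levels came from the muscle lists: Acta2 and Mcam, of the smooth muscle and pericyte list, averaged 1785 and 25.9 FPKM in control and 2389 and 20.8 FPKM in GOF libraries, and Acta1, of the skeletal muscle list, 24.9 and 150 FPKM. Acta1 was called higher. Myod1, Myog, Ckm and Tnnt3, the rest of that list, averaged at most 0.413 FPKM in either group. Only Tnnt3 of these passed the filter on low counts, and it was not called. Of the smooth muscle and pericyte list, Myh11 averaged 10.1 and 19.4 FPKM, and Cspg4, Rgs5 and Des 0.879 to 2.87 FPKM in either group. No gene of that list was called. For 4 melanocyte genes the sums were 3.05 to 6.13 FPKM per control library and 2.36 to 5.32 per GOF library. Dsg3 and Lep were at 0 in every library. The summed level of 4 markers of dividing cells (Mki67, Top2a, Ccnb1 and Cdk1) was 72.1 to 127 FPKM per control library and 34.9 to 41.3 per GOF library, and the first 3 were called lower. The part of these differences in the values below was not tested. In cultures a lower share of one kind of cell and less RNA per cell cannot be told apart.

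Estimated fragments were tested with edgeR across 15462 genes, and a gene was called if its adjusted p was under 0.05 and it changed more than 2-fold. Of the 10 hyaluronan genes 5 were called, against 12.3% of all genes tested. Because the genes were chosen with earlier results of these data known, this count is a description and not a test of the pathway. The 4 called higher stand beside 6.69% of all genes, and the 1 called lower beside 5.64%. For 6 of the 10 genes the ranges of control and GOF FPKM were separate, which held for 39.5% of all genes. Changes are given as log2FC, the log2 of the fold change of GOF over control samples, with its standard error (SE). The median log2FC of the 10 genes was 0.26, and that of all genes tested was -0.02. The set moved in both directions, so this median describes no single gene of it.

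**Figure D1:**
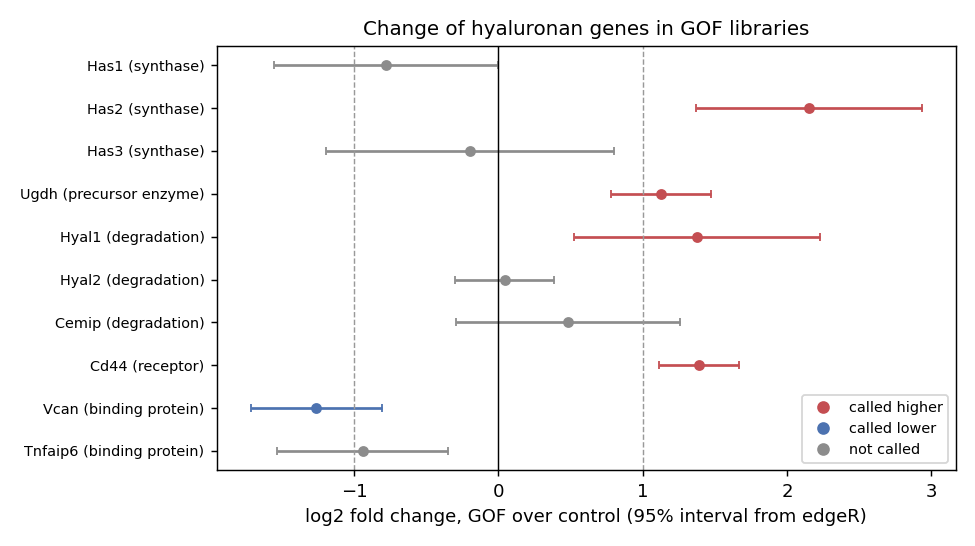
The log2 fold change of each hyaluronan gene, GOF over control samples (points), with its 95% interval from edgeR (bars); dashed lines mark a 2-fold change, red genes were called higher, blue lower and grey not called. Has2 lies furthest to the right at 2.15, and Vcan is the gene called lower, at -1.26.

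The promoters of the receptor Cd44 and of Vcan are shown because these genes moved in opposite directions, Cd44 higher and Vcan lower in GOF samples. Each sequence is the 250 bases that precede the RefSeq transcription start, 5′ to 3′ on the gene's own strand in GRCm38.p6, with GC boxes (GGGCGG or its reverse complement CCGCCC) in capitals. The Cd44 window is chr2:102901666-102901915 on the minus strand, and the Vcan window chr13:89742513-89742762, also on the minus strand.
Cd44: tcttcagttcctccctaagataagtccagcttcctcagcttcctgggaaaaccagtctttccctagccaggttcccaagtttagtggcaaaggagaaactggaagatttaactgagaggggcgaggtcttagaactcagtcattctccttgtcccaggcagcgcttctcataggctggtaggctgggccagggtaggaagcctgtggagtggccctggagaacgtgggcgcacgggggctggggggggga
Vcan: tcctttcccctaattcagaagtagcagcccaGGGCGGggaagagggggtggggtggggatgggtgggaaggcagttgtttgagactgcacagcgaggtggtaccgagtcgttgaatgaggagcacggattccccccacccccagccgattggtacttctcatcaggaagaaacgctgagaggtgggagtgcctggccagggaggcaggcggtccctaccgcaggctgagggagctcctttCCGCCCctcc

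The Cd44 window held no GC box and was 56.4% G and C, and the Vcan window held 2 GC boxes, which begin 219 and 10 bases before the start, and was 62.4% G and C. The median over 32851 promoters of the same length was 52.4%. Of the 10 hyaluronan genes 8 matched an entry of the promoter table by symbol, and Has2 and Has3 did not. A GC box on either strand was found in 6 of the 8, against 32.7% of all promoters. The letters CTTTG followed by AA, AT, TA or TT, forms of the site bound by the TCF/LEF partners of β-catenin, were in 0 of the 8 windows on either strand, and in 14.8% of all promoters. These are matches of letters in a short window, and they do not locate a binding site.

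Has2 encodes the main hyaluronan synthase of mesenchymal cells. It lies on chromosome 15 from 56665627 to 56694539 (GRCm38, minus strand, ENSMUSG00000022367.7). Control replicates 0, 1 and 2 had 13.7, 8.87 and 6.46 FPKM of Has2, and GOF replicates 0, 1 and 2 had 30.2, 54.0 and 43.1 FPKM. Every GOF library lay above every control library, although the libraries spread widely within each group. The means were 9.66 ± 3.66 and 42.4 ± 11.9 FPKM (SD, n = 3 each). By exact permutation the two-sided p was 0.1, as low as 3 against 3 libraries can reach. The fitted rise was 4.45-fold, a log2FC of 2.15 (SE 0.34, edgeR adjusted p = 0.00466, 95% interval 1.37 to 2.94). Within the animals that gave a culture to both groups, the log2 ratio of FPKM was 2.22 for GOF replicate 0 over Control replicate 2 and 1.66 for GOF replicate 2 over Control replicate 0. Among the genes tested, the level of Has2 stood above 59.5% of genes in control and above 87.2% in GOF samples.

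Has1, whose product is a less efficient synthase, and Has3, whose product makes shorter chains, were not called. Has1 had 1.24, 1.36 and 0.945 FPKM in control replicates 0, 1 and 2 and 0.742, 0.991 and 0.433 FPKM in GOF replicates 0, 1 and 2. The groups overlapped, since GOF replicate 1 lay above Control replicate 2. The log2FC of Has1 was -0.78 (SE 0.33, edgeR adjusted p = 0.142). Its 95% interval of -1.56 to -0.0033, not adjusted for the number of genes, ends just below 0 and includes a 2-fold fall. These values rest on 34 to 106 fragments per library. Has3 had 0.157, 0.403 and 0.526 FPKM in control libraries and 0.385, 0.269 and 0.332 FPKM in GOF libraries, in the same order of replicates. All GOF values fell within the range of the control values. The log2FC of Has3 was -0.20 (SE 0.43, edgeR adjusted p = 0.779), and its 95% interval of -1.20 to 0.80 includes a 2-fold fall. The Has3 values rest on 34 to 132 fragments per library. Of the Has3 exon bases 352, or 5.52%, are shared with Chtf8 on the opposite strand. The sources used here do not say that the counting used strand.

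The synthase mRNA of these fibroblasts was thus mostly Has2 in both groups. On FPKM, which is scaled by transcript length, Has2 made up 90.7%, 83.4% and 81.5% of the summed synthase level in control replicates 0, 1 and 2. In GOF replicates 0, 1 and 2 it made up 96.4%, 97.7% and 98.3%. The shares did not overlap between the groups, with means of 85.2 ± 4.87% and 97.5 ± 0.953% (SD, n = 3 each). Has1 averaged 10.97 ± 2.40% in control and 1.72 ± 0.694% in GOF samples, and Has3 3.82 ± 2.79% and 0.824 ± 0.375% (SD, n = 3 each). Together the 3 synthases reached 11.2 ± 3.59 FPKM in control samples and 43.5 ± 11.9 FPKM with GOF (SD, n = 3 each), a ratio of means of 3.88. A share is set by all 3 genes, so the lower shares of Has1 and Has3 follow in part from the higher level of Has2.

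**Figure D2:**
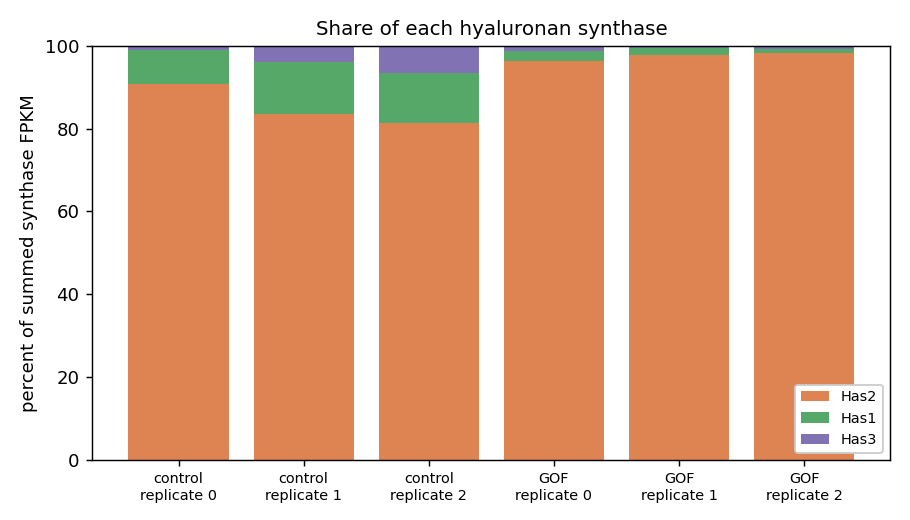
Stacked bars give, for each library, the percent of the summed FPKM of Has1, Has2 and Has3 that each synthase made up. Has2 fills 81.5% to 90.7% of the control bars and 96.4% to 98.3% of the GOF bars.

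Has2os, a noncoding RNA transcribed from the opposite strand of the Has2 locus, shares 182 bases of exon with Has2, which is 4.30% of the Has2 exon bases. In the lncRNA table it had 53, 42 and 22 fragments in control replicates 0, 1 and 2 and 55, 74 and 61 fragments in GOF replicates 0, 1 and 2. The highest control library came within 2 fragments of the lowest GOF library, and the FPKM of the groups overlapped. Its log2FC was 0.65 (SE 0.39, edgeR adjusted p = 0.336 over the lncRNA table), and it was not called, where 9.36% of the 1389 lncRNAs tested were. The library labelled Control replicate 0 decides this: without it the log2FC was 1.20 (edgeR adjusted p = 0.0375). The library kit was stranded, but the sources used here do not say that the counting used strand, so fragments of the shared bases could have been given to either gene.

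Ugdh encodes UDP-glucose dehydrogenase, which makes the UDP-glucuronic acid used for hyaluronan and for the other glycosaminoglycans. It lies on chromosome 5 from 65413221 to 65435949 (minus strand, ENSMUSG00000029201.9). Its level was 59.4, 50.1 and 49.2 FPKM in control replicates 0, 1 and 2 and 114, 125 and 104 FPKM in GOF replicates 0, 1 and 2. The lowest GOF library was well above the highest control library. Ugdh rose 2.18-fold, a log2FC of 1.13 (SE 0.15, edgeR adjusted p = 0.00251). With the animal as a replicate block the log2FC was 0.98 (edgeR adjusted p = 0.00774), under a 2-fold change, so the call on size was lost there while the adjusted p still passed. The within-animal log2 ratios of FPKM were 1.21 and 0.81. Of the Ugdh exon bases 158 are shared with Gm43552, an annotated gene of the same strand.

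Of the 3 degradation genes Hyal1 was called, and differences between them were not tested. Hyal1, which encodes a lysosomal hyaluronidase, had 2.36, 3.79 and 4.45 FPKM in control replicates 0, 1 and 2 and 9.39, 5.21 and 13.9 FPKM in GOF replicates 0, 1 and 2. The groups did not overlap, but GOF replicate 1 was close to the highest control library. Hyal1 rose 2.60-fold, a log2FC of 1.38 (SE 0.37, edgeR adjusted p = 0.0348, 95% interval 0.52 to 2.23). This call was lost when any single control library, GOF replicate 0 or GOF replicate 2 was left out (edgeR adjusted p = 0.0578 to 0.0918), and the log2FC was 0.97 in the last of these fits. It was kept without GOF replicate 1, at 1.66.

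The Hyal1 value is also uncertain because of where the gene lies, on chromosome 9 from 107576927 to 107581710 (plus strand, ENSMUSG00000010051.10). In GENCODE M21, which may differ from the annotation the authors counted with, the Hyal1 exons overlap 2 other genes. They share 1920 bases, 50.8% of the total, with Naa80, an acetyltransferase gene of the same strand, and 159 bases with Hyal3. Fragments from these bases could have been assigned to any of the overlapping genes. Naa80 had 2.31, 4.66 and 4.26 FPKM in control and 8.06, 4.43 and 7.62 FPKM in GOF replicates 0, 1 and 2, and was not called (log2FC 0.74, edgeR adjusted p = 0.182). In both genes GOF replicate 1 was the lowest of the GOF libraries and Control replicate 0 the lowest of the controls. The highest libraries differed: GOF replicate 2 and Control replicate 2 for Hyal1, GOF replicate 0 and Control replicate 1 for Naa80. Hyal3 had at most 19 fragments in any library and a log2FC of 0.21 (edgeR adjusted p = 0.785).

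Hyal2 encodes the surface-anchored hyaluronidase that cuts long chains into large fragments. It had 19.3, 15.1 and 16.8 FPKM in control and 18.3, 17.1 and 19.3 FPKM in GOF replicates 0, 1 and 2. The groups overlapped over most of their range. The log2FC of Hyal2 was 0.04 (edgeR adjusted p = 0.861), and its 95% interval of -0.30 to 0.39 excludes a 2-fold change in either direction. Cemip, which encodes a hyaluronan-binding protein needed for hyaluronan breakdown by fibroblasts, had 41.3, 64.8 and 100 FPKM in control and 123, 68.3 and 100 FPKM in GOF replicates 0, 1 and 2. Control replicate 2 was level with GOF replicate 2 and above GOF replicate 1. The log2FC of Cemip was 0.48 (SE 0.33, edgeR adjusted p = 0.346), with a 95% interval of -0.29 to 1.26 that includes a 2-fold rise. The 3 degradation genes together reached 89.5 ± 29.7 FPKM in control samples and 125 ± 31.0 FPKM with GOF (SD, n = 3 each). Most of either sum was Cemip.

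Cd44 encodes the main surface receptor for hyaluronan, which links the chain to the actin cortex. It lies on chromosome 2 from 102811141 to 102901665 (minus strand, ENSMUSG00000005087.12), just downstream of the promoter window printed above. Cd44 had 70.0, 72.1 and 68.7 FPKM in control and 187, 185 and 184 FPKM in GOF replicates 0, 1 and 2. The libraries of a group lay within a few FPKM of each other, and the groups were far apart. Cd44 averaged 70.3 ± 1.73 and 185 ± 1.31 FPKM (SD, n = 3 each) and rose 2.62-fold, a log2FC of 1.39 (SE 0.12, edgeR adjusted p = 0.000452). Within animals the log2 ratios were 1.44 and 1.40. Cd44 had the highest mean FPKM of the 10 genes in both groups, although Cemip was above it in Control replicate 2. Its level stood above 92.7% of the genes tested in control and above 97.2% in GOF samples. CD44 is made in many splice forms, and values per gene do not separate them.

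Vcan encodes versican, a large proteoglycan that binds hyaluronan and forms aggregates with it. It lies on chromosome 13 from 89655312 to 89742509 (minus strand, ENSMUSG00000021614.11). Vcan had 38.8, 45.9 and 46.5 FPKM in control and 16.9, 13.0 and 23.2 FPKM in GOF replicates 0, 1 and 2. Every GOF library was below every control library. Vcan fell from 43.7 ± 4.30 to 17.7 ± 5.16 FPKM (SD, n = 3 each), 2.40-fold lower, with a log2FC of -1.26 (SE 0.20, edgeR adjusted p = 0.00446). The within-animal log2 ratios were -1.46 and -0.74, so the fall was smaller in the animal of GOF replicate 2. With the animal as a replicate block the log2FC was -1.08 (edgeR adjusted p = 0.0092), and the call held.

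Tnfaip6 encodes TSG-6, a secreted protein that transfers heavy chains onto hyaluronan during inflammation. It had 1.63, 1.36 and 1.93 FPKM in control and 1.003, 0.732 and 0.831 FPKM in GOF replicates 0, 1 and 2. The groups did not overlap. The log2FC was -0.94 (SE 0.26, edgeR adjusted p = 0.0367), which passed on p but not on size. It passed on both with the animal as a replicate block (-1.01, edgeR adjusted p = 0.0449). Without any 1 of the 6 libraries its adjusted p was 0.0571 to 0.133 (edgeR), with log2FC of -1.09 to -0.80. These levels rest on 51 to 136 fragments per library.

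**Figure D3:**
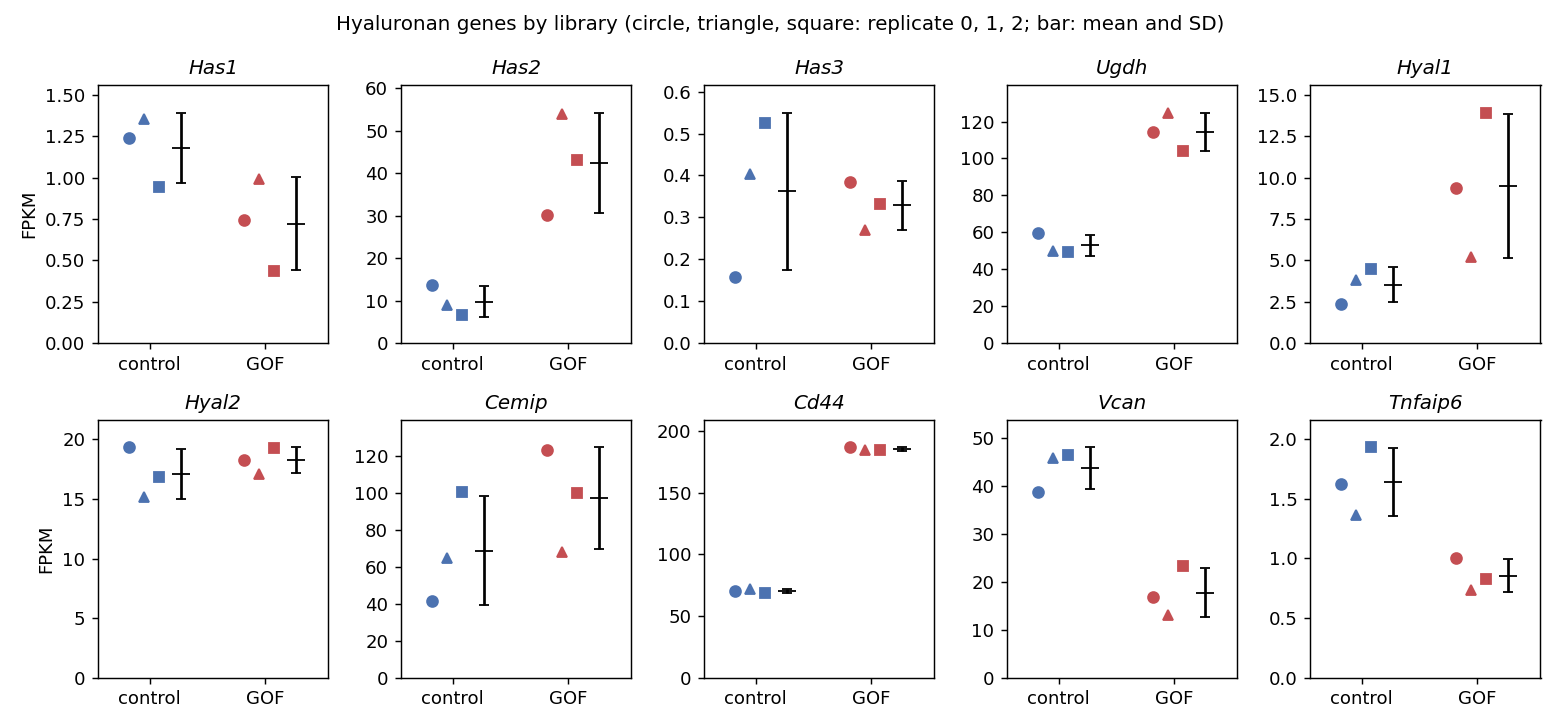
FPKM of each hyaluronan gene in every library, with its own vertical axis from 0; circles, triangles and squares are replicates 0, 1 and 2 of control (blue) and GOF (red) samples, and bars give the mean and SD. Has2, Ugdh, Hyal1 and Cd44 lie higher and Vcan and Tnfaip6 lower in all 3 GOF libraries, while Has1, Has3, Hyal2 and Cemip overlap.

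The order of the 10 levels changed between the groups. In control samples Cd44, Cemip and Ugdh, at mean levels of 70.3, 68.9 and 52.9 FPKM, came first, Cd44 overlapping with Cemip and Cemip with Ugdh. Vcan, Hyal2, Has2, Hyal1, Tnfaip6, Has1 and Has3 followed, each without overlap with the next. In GOF samples Cd44 was first, and Ugdh (114 ± 10.3 FPKM) and Cemip (97.2 ± 27.6 FPKM, SD, n = 3 each) overlapped below it. Has2 came next and did not overlap with the genes on either side. Hyal2, Vcan and Hyal1 followed, at 18.2, 17.7 and 9.51 FPKM, each overlapping with the next. Tnfaip6 and Has1 overlapped below them, and Has3 was last.

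Has2 and Cd44 kept their call in all 17 alternative settings, with log2FC of 1.86 to 2.50 and 1.34 to 1.43. A test of whether the change exceeds 2-fold, which asks more than an estimate over 2-fold, called Has2 and Cd44 alone among the 10 genes. Ugdh, Hyal1 and Vcan did not pass it (edgeR adjusted p = 0.724, 0.607 and 0.382). Their estimates are over 2-fold, and their intervals reach below it.

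**Figure D4:**
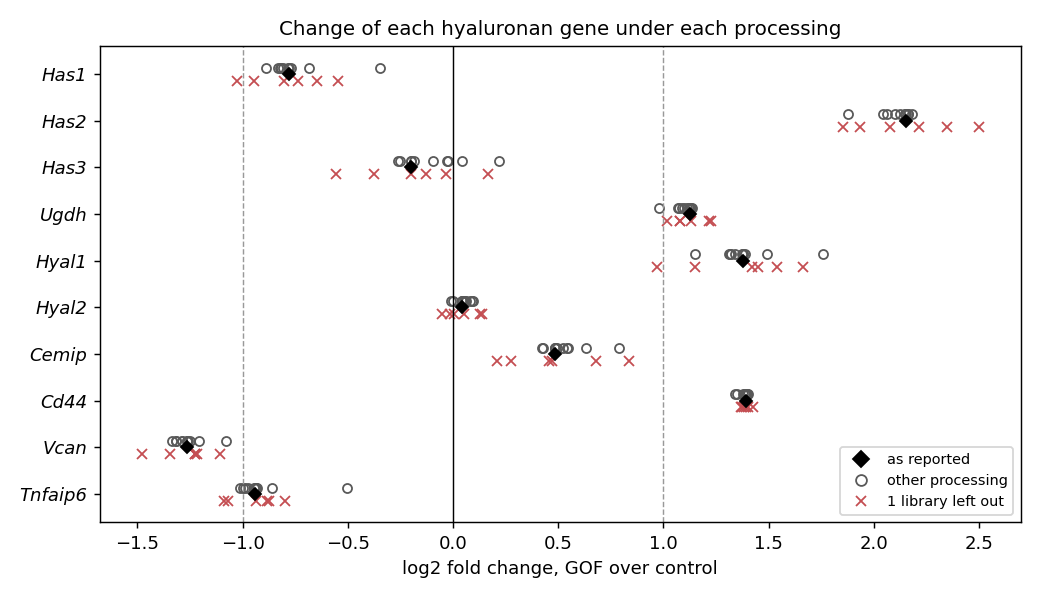
The log2 fold change of each hyaluronan gene, GOF over control samples, as reported (diamonds), under the other settings (circles) and with 1 library left out (crosses); dashed lines mark a 2-fold change. Has2 stays between 1.86 and 2.50 and Cd44 between 1.34 and 1.43, while Has3 and Hyal2 lie on both sides of 0.

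A wider list of 44 genes held the rest of the pathway by role. Of these 30 were tested and 14 did not pass the filter on low counts, 4 of them at 0 fragments in every library. Among the 30, 4 were called higher and 1 lower, beside the 6.69% and 5.64% of all genes. At an adjusted p under 0.05 alone (edgeR) there were 12 of the 30, 6 in each direction. Of all 15462 genes tested 3281 passed that limit, 1711 higher and 1570 lower. The median log2FC of the list was -0.02.

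Of the 9 genes that make UDP-sugars or act on their precursors in either direction 0 were called (edgeR, and DESeq2 also 0). Of these 3 had an unadjusted p under 0.05 (edgeR), and without Control replicate 2 the count of called genes was 1. Of the 9, 2 passed the adjusted p alone, named after their values were seen. These were Nagk, which salvages N-acetylglucosamine, with a log2FC of -0.53 (edgeR adjusted p = 0.0126), and Amdhd2, which removes the acetyl group of its phosphate, with -0.91 (edgeR adjusted p = 0.00920). The others include Gfpt1, the rate-limiting enzyme of hexosamine synthesis, at -0.36 (edgeR adjusted p = 0.0762), and Uap1, which makes UDP-N-acetylglucosamine, at 0.24 (edgeR adjusted p = 0.184). Ugp2, which makes the UDP-glucose that Ugdh uses, was at -0.07 (edgeR adjusted p = 0.835).

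Of 10 other degrading enzymes 6 were tested and 1 was called. Cemip2, which encodes a transmembrane hyaluronidase, had 4.46, 6.18 and 7.07 FPKM in control and 18.0, 18.7 and 12.7 FPKM in GOF replicates 0, 1 and 2. All GOF libraries were above all control libraries, and the log2FC was 1.48 (SE 0.22, edgeR adjusted p = 0.00373). Among the lysosomal exoglycosidases, Hexa and Gusb are named after their values were seen, and both passed the adjusted p alone. Hexa, which encodes a hexosaminidase subunit, had a log2FC of -0.79 (edgeR adjusted p = 0.00535), and Gusb, β-glucuronidase, had 0.39 (edgeR adjusted p = 0.0445).

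Of 7 other receptors 6 were tested and 1 was called. Hmmr, whose product binds hyaluronan and also the mitotic spindle, had 10.0, 6.01 and 6.26 FPKM in control and 3.25, 2.56 and 3.77 FPKM in GOF replicates 0, 1 and 2. The groups did not overlap, and Control replicate 0 was the highest. The log2FC of Hmmr was -1.23 (SE 0.22, edgeR adjusted p = 0.00819), and without Control replicate 0 it was -0.94 (edgeR adjusted p = 0.00367), under 2-fold. Of the 4 markers of dividing cells 3 were also called lower, and their part in the Hmmr value was not tested. Tlr4, a receptor for hyaluronan fragments, passed the adjusted p alone, with -0.63 (edgeR adjusted p = 0.00710). Lyve1, the lymphatic hyaluronan receptor, was near 0 in both groups, at 0.0835 and 0.0907 FPKM on average, from 9 to 15 fragments per library.

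Of 15 other binding proteins 6 were tested and 2 were called. Itih5 encodes a heavy chain of the inter-α-trypsin inhibitor family, whose heavy chains can be attached to hyaluronan. It had 0.112, 0.0942 and 0.106 FPKM in control and 5.32, 3.61 and 7.30 FPKM in GOF replicates 0, 1 and 2. All GOF libraries were far above the control libraries, which held 41 to 45 fragments each. The log2FC of Itih5 was 5.67 (SE 0.27, edgeR adjusted p = 5.84e-05). Hapln1, a link protein that fastens proteoglycans to hyaluronan, had 3, 8 and 10 fragments in control and 50, 23 and 18 in GOF libraries, with a log2FC of 2.06 (edgeR adjusted p = 0.0328). At these counts the call was lost in 9 alternatives, in 5 of them by leaving out 1 library. Ptx3, which cross-links hyaluronan together with TSG-6, was not called, with GOF libraries at 29.9, 12.9 and 45.8 FPKM and control libraries at 58.0, 41.1 and 37.2 FPKM.

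The 3 proteins that tie CD44 to actin are close relatives. Msn (moesin) had 59.6, 65.2 and 69.4 FPKM in control and 186, 141 and 101 FPKM in GOF replicates 0, 1 and 2. The groups did not overlap, although the GOF libraries were far from one another. The log2FC of Msn was 1.14 (SE 0.23, edgeR adjusted p = 0.0128), and it was 0.90 without GOF replicate 0 (edgeR adjusted p = 0.0413). Ezr (ezrin), at a lower level, had a log2FC of 0.83 (edgeR adjusted p = 0.0108), and Rdx (radixin) had 0.03 (edgeR adjusted p = 0.870, 95% interval -0.23 to 0.29).

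**Figure D5:**
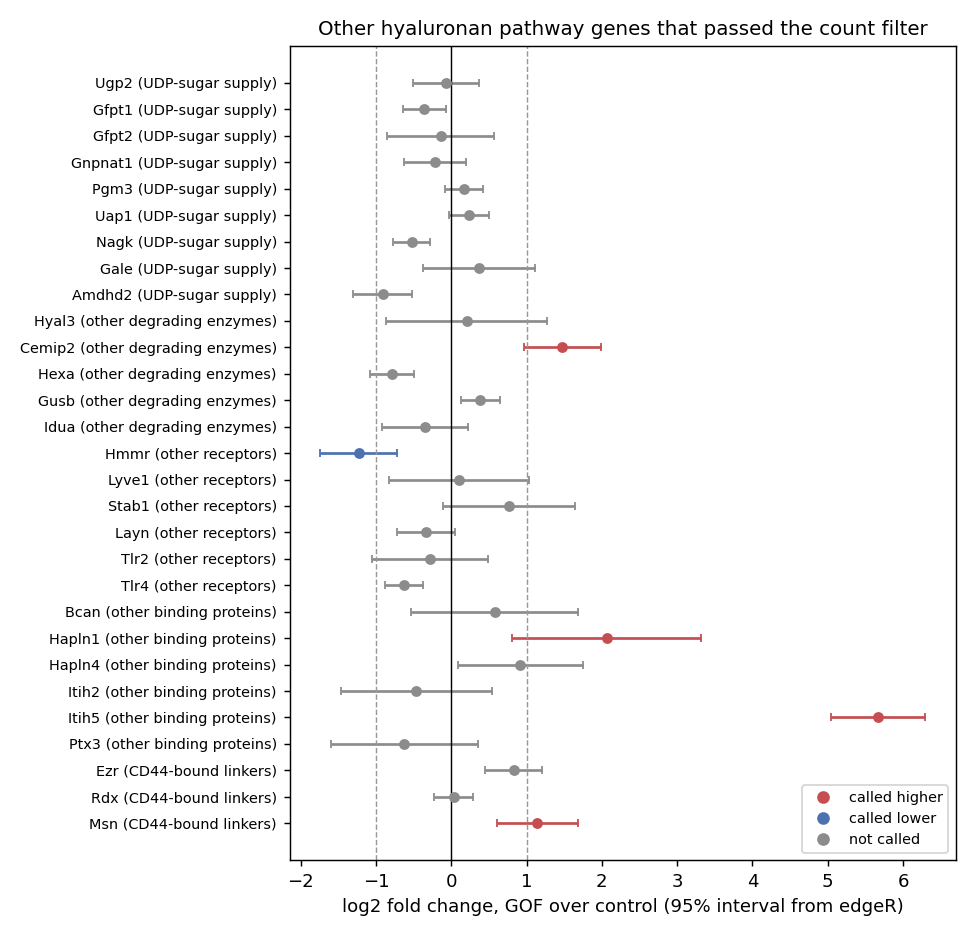
The log2 fold change of 29 of the 30 tested genes of the wider list, GOF over control samples (points), with 95% intervals from edgeR (bars), grouped by role; dashed lines mark a 2-fold change. Itih5 stands apart at 5.67, Cemip2, Hapln1 and Msn are the other genes called higher, and Hmmr is the gene called lower.

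For each called gene of the 10, the profile over the 6 libraries was compared with those of 12017 genes of a mean FPKM of at least 1, by the root mean square difference of centred log2(FPKM + 1). The profile most like that of Has2 was that of Tnfrsf11b, the gene of osteoprotegerin, at a difference of 0.224, with 21.8, 14.7 and 12.2 FPKM in control and 49.0, 71.2 and 47.8 FPKM in GOF replicates 0, 1 and 2. Like Has2, it was highest in GOF replicate 1 and, among controls, in Control replicate 0. Pxmp2 and Car8 came next. Mocos, Retreg1 and Arf2 were nearest to Ugdh (0.0617 for Mocos), and Fbxw7, Myh11 and Prrg4 to Hyal1 (0.173 for Fbxw7). Snap91, Osbpl3 and Ereg were nearest to Cd44 (0.0758 for Snap91), and Marcks, Naalad2 and Pdgfrl to Vcan (0.0720 for Marcks). Adding 1 to the FPKM shrinks changes at low levels, so a near profile need not mean a like fold change. The log2FC was 2.49 for Snap91, 1.97 for Osbpl3 and 1.73 for Ereg, against 1.39 for Cd44. Snap91 averaged only 0.620 FPKM over the control libraries. For Tnfrsf11b, Pxmp2 and Car8 the log2FC was 1.79, 2.90 and 2.47, against 2.15 for Has2. Within a difference of 0.1 there were 15 genes for Ugdh, 4 for Cd44, 1 for Vcan and 0 for Has2 and Hyal1. The 6 libraries fall into 2 groups that all these genes share, and nothing was tested here.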

How the data were processed

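RNA from 3 control and 3 GOF cultures was sequenced by the authors as stranded, paired-end libraries. The authors aligned them to mm10 using TopHat and quantified genes with Cuffdiff; the versions are not given in the sources used here. The estimated counts were deposited by the authors as fragments per gene and library, without normalization, in an all-gene table and a lncRNA table. The FPKM values were deposited after the authors' Cuffdiff run had scaled fragments by transcript length and between libraries. Further columns of scaled per-library values were not used. The tables were tested separately, and 32 genes with a failed estimate, none of them a gene of the lists here, were left out.

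The 10 genes and the wider list were chosen with earlier results of these data known. The genes named are the 10, Ctnnb1, Axin2, Has2os, up to 3 called genes of each role of the wider list by adjusted p, and the 3 genes with the nearest profile to each called gene, while any others were chosen after their values were seen. A gene of the wider list is counted but not reported by itself here. Groups, replicate numbers and animals were taken from the sample labels. Of the identifiers 97.9% were found in GENCODE M21 (GRCm38), and promoters came from RefSeq on GRCm38.p6. Identifiers were matched without their version and are printed with the version as deposited. Positions and exon overlaps came from GENCODE M21, whose gene models can differ from those the authors counted with.

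Estimated counts were rounded (4.95% were not whole) and tested in R 4.3.3 with edgeR 4.0.16 (TMM, filterByExpr, quasi-likelihood test, Benjamini-Hochberg adjustment). The FPKM of each gene was also compared by exact permutation of the libraries. Tables were read with data.table (version 1.17.8) and plots drawn with Python 3.11.15, pandas 2.3.3 and matplotlib 3.10.9. The script was tested on simulated data. Alternatives were DESeq2 1.42.0, library totals, upper-quartile normalization, no filter, a minimum FPKM of 1 in 3 libraries, limma 3.58.1 on log2(FPKM + 1) and log2(FPKM + 0.1), testing for a change beyond 2-fold, a replicate block by number or animal, and each library left out. Limma voom with a correlation between cultures of 1 animal was added after the data were seen. Libraries held 35980831 to 42834467 fragments, and counting error is larger for genes of few fragments.

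Numbers shared between groups did not pair the samples: deviations from the group means correlated at -0.42, 0.05 and -0.40 for libraries of the same number. Those of cultures from the same animal, which the labels name, correlated at 0.37 and 0.48.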

Additional observations from a re-analysis of the deposited data

How the results depend on the processing

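Over the alternatives 618 to 2177 genes of the all-gene table were called, against 1906 as reported. With limma on log2(FPKM + 1) there were 877, 481 higher and 396 lower. A test against a fold change of 2 called 618, 403 higher and 215 lower, with 2 of the 10 hyaluronan genes, 2 higher and 0 lower, and 1 gene of the wider list, 1 higher and 0 lower. A minimum FPKM of 1 in 3 libraries left 639 called higher and moved the hyaluronan median to 0.81, since Has1 and Has3 did not pass that filter. For the wider list limma on log2(FPKM + 1) gave 3 called genes and 0 lower.

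With each library left out, 569 to 909 genes were called lower, the lowest without GOF replicate 0. Of the hyaluronan genes 4 to 5 were then called, and their median was 0.17 to 0.50, the highest without Control replicate 2. Of the wider list 3 to 6 were called, 2 to 5 higher and 0 to 2 lower, and the log2 fold change of Has2os was 0.29 to 1.20. The sign turned for 3 genes that were not called. Has3 was at 0.22 with the animal block, at 0.044 with the correlation between cultures and at -0.56 to 0.17 with 1 library left out. Hyal2 was at -0.010 with upper-quartile normalization and at -0.053 to 0.14 with 1 library left out, and Ctnnb1 at -0.16 to 0.023. The causes were not tested. Over all alternatives the adjusted p of Has2 was at most 0.0401 and that of Cd44 at most 0.0331. It ran from 1.38e-09 to 0.724 for Ugdh, 0.00114 to 0.607 for Hyal1, 9.74e-08 to 0.382 for Vcan, 9.64e-06 to 0.577 for Hmmr, 3.42e-05 to 0.940 for Msn and 0.00801 to 0.240 for Hapln1, the highest in each case in the test against a fold change of 2.

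A replicate block by animal, with 1 residual degree of freedom, had 5 hyaluronan genes called, 3 higher and 2 lower, with a median of 0.50. A block by label number, which pairs nothing here, called 5 as well. On estimated fragments, not scaled by length, Has2 made up 98.4% and Has1 0.591% of the GOF synthase level.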
